A study of Mus musculus with 4 samples.

Results

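Brain tissue of an old mouse group that had received no tumor cells was compared, gene by gene, with brain tissue of a young group that had received none. The comparison covered 12745 protein-coding genes, those of GENCODE M21 that reached 1 FPKM (read fragments per kilobase of exon, relative to sequencing depth) in either library, out of 54532 genes listed in the files and 13911 protein-coding genes that reached that level in any of the series' 4 libraries. All 4 libraries were poly-A RNA of C57BL/6 mice. The young naive mice were 8 to 12 weeks old. The age given for the old naive mice ran from 8 to 90 weeks, so its lower end equals that of the young mice and the group is used as labelled. Neither naive group received tumor cells, although both carry the label of GL261, a mouse glioma line. The other 2 libraries came from young and old mice that carried a brain tumor grown from 50000 GL261 cells and sampled on day 21. They are called young tumor and old tumor tissue where their levels are set beside those of the naive libraries. The labels of all 4 libraries call the tissue extratumoral, that is, brain tissue outside the tumor, so these names do not mean the tumor itself. Each group was 1 library, and how many mice it came from is not given in the sources used here. No difference below could therefore be set against the spread between replicates, and the groups were compared without a test. Folds are ratios of FPKM, and the range in parentheses after a fold is the exact binomial 95% interval of the underlying reads, which covers counting error only.

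Studies of the ageing mouse brain are commonly read for a low-grade immune response: complement and MHC class I genes, interferon-stimulated genes, and the activation genes of astrocytes and microglia. Genes of cell division, immature neurons, collagen and newly formed oligodendrocytes are commonly read for decline. The brain is also a patchwork of regions with their own genes, such as the granule and Purkinje neurons of the cerebellum, the choroid plexus that secretes cerebrospinal fluid, and the medium spiny neurons of the striatum. A piece of tissue that holds more of a region carries more of that region's transcripts. In bulk tissue, fewer cells of a type and less RNA per cell cannot be told apart.

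The young naive library held 23267926 fragments in genes and the old naive library 19628991. A count of 0 allows up to 3 reads, which for a gene of 1 kb is 0.147 FPKM in young naive and 0.192 FPKM in old naive tissue. Mitochondrially encoded genes took 5.51% and 5.44% of the fragments. Neuronal, astrocyte and myelin genes were high in both libraries: Snap25, a synaptic fusion protein, was at 262 FPKM in young and 325 FPKM in old naive tissue, and Mbp, the myelin basic protein, at 425 and 356 FPKM.

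Most genes stood at similar levels. The median log2 ratio of old over young naive tissue, taken of FPKM + 0.1, was 0.04, and 10275 genes (80.6%) lay within 1.5-fold. At least 2-fold higher in old naive tissue were 415 genes, or 3.26%, and at least 2-fold lower were 391, or 3.07%, together 6.32%. These shares are the background for the gene groups below. The far end of the distribution was on the lower side. At least 8-fold lower were 72 genes, and 9 were at least 8-fold higher. Of the 72, 27 belong to the region lists given next, which hold 134 of the 12745 genes. The split between higher and lower genes depended on the scaling. Median-of-ratios scaling, which shifted every log2 ratio by -0.07, gave 328 higher and 436 lower genes. Scaling by recovered fragments (a shift of -0.14) gave 274 and 492, and totals taken without the mitochondrial and 50 most abundant genes (-0.12) gave 281 and 480. Equal FPKM totals (-0.23) gave 206 and 583. Centring on the GC content of transcripts, an alternative added after the data were seen and described at the end, gave 270 higher (2.12%) and 394 lower genes (3.09%), together 5.21%. Of the higher genes with recovered reads, 393 of 401 had a counting interval wholly above equality and 193 one wholly above 2-fold, and of the lower genes 368 of 374 and 240. The floor of 1 FPKM sets part of these counts, because 152 of the higher and 205 of the lower genes reached it in only 1 of the libraries. At its edge, C1qtnf1, a secreted C1q-like protein gene, was just inside at 0.687 FPKM in young and 1.0002 FPKM in old naive tissue, and Gpr139 was just outside at 0.9998 and 0.765 FPKM.

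**Figure D1:**
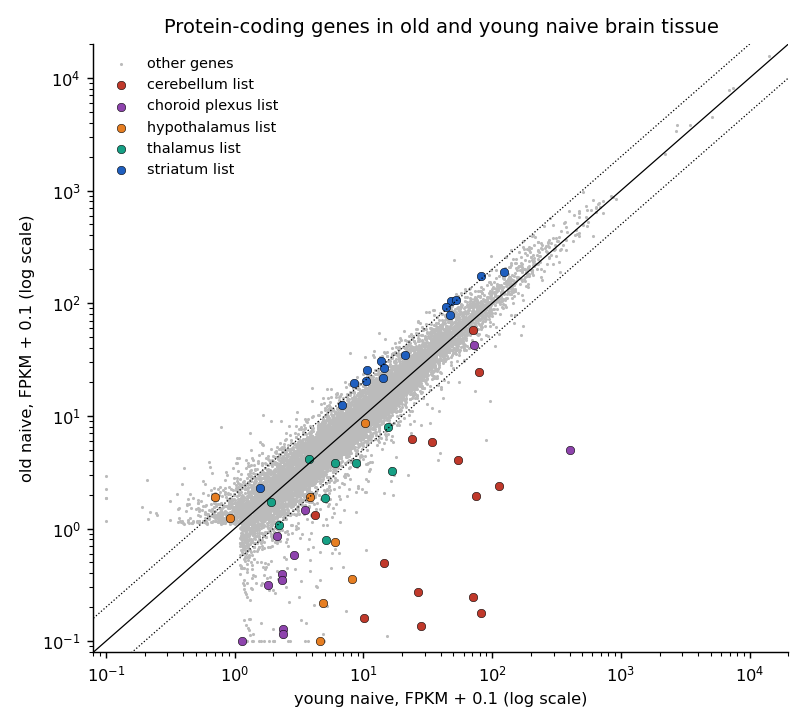
Each point is a gene, placed by its FPKM + 0.1 in young naive (horizontal, log scale) and old naive tissue (vertical, log scale), with equality as a solid line and 2-fold as dotted lines. Genes of the cerebellum, choroid plexus, hypothalamus and thalamus lists are coloured and lie mostly below the diagonal, down to Gabra6 at 81.5 and 0.077 FPKM, and the 15 striatum genes lie above it.

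Genes of the cerebellum were far lower in old naive tissue. Of 14 listed cerebellar genes, all measured, 13 were at least 2-fold lower, 0 were higher, and the median log2 ratio was -5.05, against 0.04 over all genes. Gabra6, the GABA-A receptor subunit of granule neurons (ENSMUSG00000020428, mm10 chromosome 11, 42306437 to 42321072), was at 81.5 FPKM in young naive, 65.7 in young tumor, 0.077 in old naive and 0 in old tumor tissue. That is 4147 reads against 3 between the naive libraries, 1058-fold lower (362 to 5132). Both young libraries were high and both old libraries at or near 0. Cbln3, a secreted partner of the synapse organizer cerebellin, had 7042 reads in young and 11 in old naive tissue (490-fold lower, 274 to 982). The Purkinje neuron genes Pcp2 and Ppp1r17 had 988 against 5 and 1006 against 1 reads (151-fold lower, 64.6 to 467, and 770-fold lower, 138 to 30438).

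Less strictly cerebellar genes were lower by less. Car8, an inactive carbonic anhydrase family member of Purkinje neurons, was at 113 and 2.29 FPKM (49.3-fold lower, 41.6 to 58.7) and Cbln1, the cerebellin itself, was 40.3-fold lower (32.6 to 50.3). Calb1, a calcium buffer that forebrain neurons make too, was 3.26-fold lower (3.09 to 3.43). Itpr1, an intracellular calcium channel, was the member that stayed within 2-fold, at 70.6 and 57.4 FPKM. Summed over the list, the cerebellar genes came to 684, 676, 104 and 30.7 FPKM in young naive, young tumor, old naive and old tumor tissue. The labels name no brain region, so a difference in the region taken and a difference of age cannot be told apart in these libraries. The part of region content in the results below was not tested.

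The promoters of 3 of these genes are shown because their transcripts were lower together. Each line gives the 250 bases before the RefSeq start on GRCm38.p6, read 5′ to 3′ on the gene's strand: Gabra6 at chr11:42321073-42321322, Cbln3 at chr14:55884257-55884506 and Pcp2 at chr8:3625037-3625286, all on the minus strand. Capitals mark TGCCAA, the reverse complement of the nuclear factor I core TTGGCA, in Gabra6 and Cbln3, and AGGTCA, a core bound by nuclear receptors such as ROR, in Pcp2.
Gabra6: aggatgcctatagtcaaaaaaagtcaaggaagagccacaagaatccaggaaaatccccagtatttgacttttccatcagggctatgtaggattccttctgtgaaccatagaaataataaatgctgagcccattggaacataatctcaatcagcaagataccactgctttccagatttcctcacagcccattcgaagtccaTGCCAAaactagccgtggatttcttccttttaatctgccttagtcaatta
Cbln3: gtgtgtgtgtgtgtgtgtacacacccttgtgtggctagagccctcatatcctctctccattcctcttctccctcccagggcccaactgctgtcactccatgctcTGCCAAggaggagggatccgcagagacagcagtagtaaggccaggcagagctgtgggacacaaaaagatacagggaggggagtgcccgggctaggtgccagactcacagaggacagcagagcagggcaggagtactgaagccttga
Pcp2: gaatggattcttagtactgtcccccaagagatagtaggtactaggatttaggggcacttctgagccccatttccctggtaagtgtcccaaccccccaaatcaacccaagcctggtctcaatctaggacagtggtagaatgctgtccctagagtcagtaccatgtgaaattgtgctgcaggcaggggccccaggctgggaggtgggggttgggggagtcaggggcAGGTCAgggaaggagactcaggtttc
Both motifs were searched on both strands, and none of the 3 promoters held both. Where a gene had several RefSeq starts, the start with the most motif matches is shown, and a gene counted if any start matched. TTGGCA was present in 2 of the 6 cerebellar genes with a promoter in the RefSeq table and in 14.1% of all 27025 genes of that table. AGGTCA was present in 2 of 6 and in 15.8%. A match is a description of the letters, not a binding site or a cause. The RefSeq starts of Cbln3 and Pcp2 lie inside the longer GENCODE gene.

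Choroid plexus genes were lower as well, and all 18 listed genes together came to 498 FPKM in young and 51.6 FPKM in old naive tissue. Of 11 measured members 10 were at least 2-fold lower and 0 higher (median -2.57, and -2.52 with 0 reads set to 3 reads). Of these 11, 8 passed the floor only through young naive tissue, so the count rests in part on the floor, and without a floor the median was -2.36. Ttr, the thyroid hormone carrier that choroid plexus epithelium makes in large amounts, was at 402, 383, 4.88 and 445 FPKM in young naive, young tumor, old naive and old tumor tissue, 82.4-fold lower in old than in young naive tissue (its reads did not come out whole, so it has no interval). Of the 4 libraries, old naive tissue stood apart. Folr1, the folate receptor of that epithelium, had 106 reads against 1 (81.1-fold lower, 14.2 to 3234), and the water channel gene Aqp1 was 7.65-fold lower (4.22 to 15.2). Genes of ependymal cilia, the lining of the ventricles, had 4 of 9 measured members (of 19 listed) lower and 0 higher (median -0.72). Foxj1, the regulator of motile cilia, was among those within 2-fold (1.68-fold lower, 1.32 to 2.15). Of the 9, 4 passed the floor only through young naive tissue, so this count too rests in part on the floor. Without a floor the median was -0.86.

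Hypothalamic, monoamine and brainstem transmitter genes leaned lower too. In the hypothalamus list 5 of 8 measured members (of 19 listed) were lower and 1 was higher (median -1.998), but 4 members passed the floor only through young and 2 only through old naive tissue, and without a floor the median was -0.49. Hcrt, the orexin precursor, had 124 reads in young naive and 3 in old naive tissue (31.6-fold lower, 10.6 to 155), and Pmch, the melanin-concentrating hormone precursor, 69 and 0 (at least 17.6-fold lower). In young tumor-bearing tissue Hcrt had 2 reads and Pmch 10, so the young naive library was the highest of the 4 in both. The higher member was Gnrh1, with 8 and 18 reads. All 8 measured monoamine genes, of 17 listed, were lower, with a median of -3.14 (-2.75 with 0 reads set to 3), but 5 of them passed the floor only through young naive tissue, and without a floor the median was -1.87. Slc6a3, the dopamine transporter, had 303 reads in young naive, 140 in young tumor and 0 in old naive and in old tumor tissue (at least 77.3-fold lower). Th, which makes the dopamine precursor, was 3.44-fold lower (2.57 to 4.66). The list of brainstem and spinal transmitter genes had 5 of 11 measured members (of 13 listed) lower and 0 higher (median -0.90). Of the 11, 5 passed the floor only through young naive tissue, so the count rests in part on the floor. Without a floor the median was -1.32. Slc17a6, the vesicular glutamate transporter of thalamus and brainstem, was at 22.2, 18.6, 2.90 and 3.31 FPKM in young naive, young tumor, old naive and old tumor tissue (7.64-fold lower between the naive libraries, 6.70 to 8.75). The thalamus list had 5 of 9 measured members lower and 0 higher (median -1.05). Among the lower was Prkcd, a protein kinase of thalamic relay neurons, 5.23-fold lower (4.61 to 5.96). Of the 9, 2 passed the floor only through young naive tissue, so the count rests in part on the floor. The median was -1.05 without a floor and -1.19 with a floor of 5 FPKM. Hox genes, which mark hindbrain and spinal cord, and pituitary hormones had no measured member.

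Striatal genes stood on the other side. Of 15 listed, 15 were measured, 7 reached 2-fold higher, 0 were 2-fold lower, and the median was 0.97. The lowest of them, Rarb, had a log2 ratio of 0.53, so each lay above 0 under every scaling tried. Drd1, the dopamine receptor of the direct pathway, was at 8.29, 7.001, 19.3 and 1.26 FPKM in young naive, young tumor, old naive and old tumor tissue (2.33-fold higher in old than in young naive, 2.11 to 2.58). Adora2a and Drd2, receptors of the indirect pathway, were 2.27-fold and 1.83-fold higher, and Ppp1r1b, the phosphatase inhibitor DARPP-32, was at 82.3 and 175 FPKM (2.13-fold, 2.05 to 2.21). The striatal sum came to 498 and 939 FPKM in the naive libraries, and 422 and 104 FPKM in the tumor-bearing ones.

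Cortical genes went both ways. Of 16 measured, 3 were higher by 2-fold or more and 2 lower (median 0.52). Tbr1 and Cux2, transcription factors of deep and upper cortical layers, were 2.45-fold (2.30 to 2.60) and 2.40-fold higher (2.26 to 2.55). Neurod1, which cerebellar granule neurons make too, was 9.53-fold lower (8.15 to 11.2). In the hippocampus list 4 of 13 measured members were lower and 0 higher (median -0.13), with C1ql2 and Prox1, genes of dentate granule neurons, 12.5-fold (7.57 to 22.2) and 2.44-fold lower (2.13 to 2.81). Of the 13, 2 passed the floor only through young naive tissue. The hippocampus median depended on the floor, at -0.89 without one and 0.13 with a floor of 5 FPKM.

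**Figure D2:**
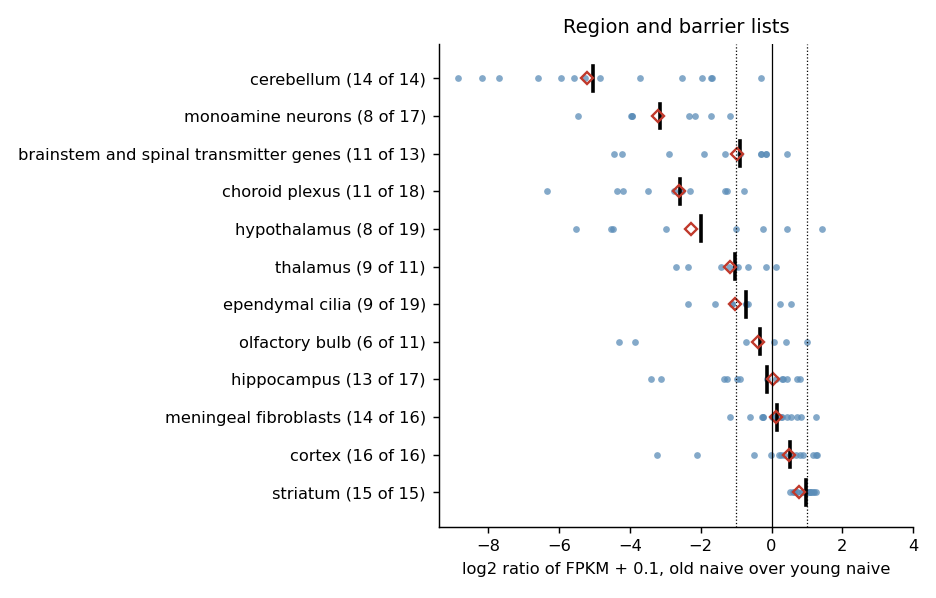
Each point is a measured gene of a region or barrier list, placed by its log2 ratio of FPKM + 0.1, old over young naive tissue; black bars are list medians, red diamonds are medians after centring on GC content, dotted lines mark 2-fold, and the labels give measured genes of those listed. Medians run from -5.05 for cerebellum to 0.97 for striatum, and hippocampus lies near 0 with its diamond on the other side of it.

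The region lists hold 134 of the 12745 genes. Without these, 403 of the remaining genes were at least 2-fold higher in old naive tissue and 332 lower. Both counts keep region genes that are in no list, so they are not free of region content. Among the 15 lowest named genes, 7 were cerebellar list genes and 5 were in no list. Those 5 were Cnpy1 (1820 reads against 1), Lhx1 (395 against 1), Dao (433 against 4), Crtam (508 against 0) and Shox2 (287 against 0). Lhx1 is a transcription factor of Purkinje and other hindbrain neurons, Shox2 one of thalamus and brainstem, and Dao a D-amino acid oxidase active in the hindbrain. In young tumor tissue Cnpy1 had 2547 reads, Lhx1 447, Dao 364, Crtam 552 and Shox2 313.

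Cell type lists lay nearer 0 than most region lists. The pan-neuronal list had 0 of 17 members 2-fold apart and a median of 0.19, which was below 0 with equal FPKM totals. Of 14 excitatory neuron genes 3 were higher and 1 was lower by 2-fold (median 0.57), with Slc17a7, the vesicular glutamate transporter of forebrain, 2.03-fold higher (1.995 to 2.07) and Slc17a6, described above, lower. Inhibitory neuron genes had 2 of 18 higher and 1 lower (median 0.33). The lower member was Pvalb, a calcium buffer of fast-spiking and Purkinje neurons, at 173 and 62.7 FPKM (2.76-fold lower, 2.58 to 2.96). Sst, the somatostatin precursor of another interneuron class, was at 227 and 298 FPKM (1.31-fold, 1.25 to 1.38), and Npy, neuropeptide Y, at 54.0 and 93.0 FPKM (1.72-fold, 1.55 to 1.91).

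Glial lists leaned lower, except microglia. Oligodendrocyte and myelin genes had 1 of 24 members 2-fold lower and 0 higher (median -0.38), with Mbp 1.19-fold lower (1.18 to 1.21). Ugt8a, which makes myelin galactolipid, was the member past 2-fold (2.22-fold lower, 2.04 to 2.42). Astrocyte genes had 1 of 18 lower (median -0.33), the water channel gene Aqp4 at 55.1 and 19.996 FPKM, while Aldh1l1, a folate enzyme used to mark astrocytes, was 1.28-fold higher (1.18 to 1.38). Precursor genes had a median of -0.42, although Pdgfra, their receptor, differed by less than its counting error (1.05-fold lower, 0.969 to 1.15). All 18 homeostatic microglia genes lay within 2-fold, 17 of them above 0 (median 0.43), with the purinergic receptor gene P2ry12 at 11.7 and 14.7 FPKM (1.26-fold higher, 1.119 to 1.41). Endothelial genes had a median of -0.09, which was 0.08 after the GC centring described below. Cldn5, their tight junction gene, was at 35.7 and 39.0 FPKM, and the clotting factor gene Vwf was the 1 member past 2-fold (2.63-fold higher, 2.33 to 2.97). Erythroid genes, which report blood left in the tissue, had 0 of 5 measured members 2-fold apart (median 0.59). All 5 lay above 0, and the 7 listed genes came to 387 FPKM in young and 604 FPKM in old naive tissue.

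Most listed protein-coding lymphocyte genes were close to the limit of detection, while constant-region genes of immunoglobulins and of the T cell receptor, which are not protein-coding in GENCODE, are given at the end. Of 19 T and NK cell genes 1 was measured, Cd4, at 1.41 and 3.87 FPKM (2.75-fold higher, 2.19 to 3.46), a gene that myeloid cells and some neurons also transcribe. Cd3e, a subunit of the T cell receptor complex, had 6 reads in young naive and 0 in old naive tissue, and Cd8a had 0 and 5. None of the 10 protein-coding genes of the B and plasma cell list reached the floor. Of 14 monocyte and neutrophil genes 3 were measured, all 2-fold or more higher, but 2 of them passed the floor only through old naive tissue, where they were high, so this count rests on the floor. Without a floor the list median was 0.78, and the list summed to 3.73 FPKM in young and 12.0 FPKM in old naive tissue. S100a8, a granule calcium-binding protein, had 7 reads in young and 26 in old naive tissue (4.85-fold, 2.05 to 13.2), its partner S100a9 had 23 and 46 (2.61-fold, 1.55 to 4.52), and the granule gene Ngp had 3 and 25 (10.9-fold, 3.32 to 56.3).

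Some complement genes and most measured MHC class I genes were higher in old naive tissue. C4b, complement component 4 (ENSMUSG00000073418, mm10 chromosome 17, 34728380 to 34743882), was at 3.92 FPKM in young naive, 30.3 in young tumor, 17.4 in old naive and 79.7 in old tumor tissue. It was 4.45-fold higher in old than in young naive tissue (4.004 to 4.95). Young naive tissue was the lowest of the 4, and each tumor-bearing library exceeded the naive library of its age. Astrocytes and oligodendrocytes are known sources of C4b, and its log2 ratio exceeded the median of the astrocyte identity list by 2.45 and that of the oligodendrocyte list by 2.50. In the complement list as a whole 6 of 11 measured members lay above 0 and 5 below (median 0.26). By 2-fold or more, 2 were higher and 0 lower, and C4b was 1 of the 2. The other was C1ra, an initiating protease, at 0.607 and 1.67 FPKM (2.75-fold, 1.84 to 4.19), which passed the floor only through old naive tissue. C1qa, a recognition subunit made by microglia, was 1.70-fold higher (1.53 to 1.88), and its log2 ratio exceeded the homeostatic microglia median by 0.34, or by 0.07 after GC centring. After GC centring C4b exceeded the astrocyte and oligodendrocyte medians by 2.36 and 2.44.

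The MHC class I list had 4 of 18 measured members higher by 2-fold or more and 0 lower, and 17 lay above 0 (median 0.72). Of the 18, 4 passed the floor only through old naive tissue, Tap1, H2-Q6 and H2-Q7 among them, so the count rests in part on the floor. Without a floor the median was 0.75, and with a floor of 5 FPKM it was 0.50. Tap1, a subunit of the transporter that loads peptides, was at 0.5002 and 1.51 FPKM (3.01-fold, 2.18 to 4.20). The other 3 genes past 2-fold were H2-Q4, H2-Q6 and H2-Q7, close copies whose reads can be split among them. Their single values (3.48-fold, 11.1-fold and 8.14-fold) are therefore uncertain. H2-K1, a classical heavy chain, was listed at 11.1 and 21.6 FPKM, H2-D1, the other classical chain, at 25.6 and 27.6 FPKM, and the light chain gene B2m at 92.5 and 113 FPKM (1.22-fold, 1.14 to 1.31). In tumor-bearing tissue the same 3 genes were at 74.2, 79.2 and 277 FPKM in young and 575, 448 and 1684 FPKM in old mice. MHC class II genes had 0 of 6 measured members 2-fold apart (median 0.30). Interferon-stimulated genes had 24 of 26 measured members (of 40 listed) above 0 but 1 higher by 2-fold or more and 1 lower (median 0.37). The higher one was Ifi27l2a, with 7 and 14 reads (2.61-fold, 0.987 to 7.65), and the lower one Samd9l (2.46-fold lower, 1.78 to 3.46). After GC centring 3 were higher and 0 lower, with Samd9l at -0.82. Of the 26, 7 passed the floor only through old and 1 only through young naive tissue, so the number above 0 rests in part on the floor. Without a floor the median was 0.25, and with a floor of 5 FPKM it was 0.44. The list came to 85.3 and 111 FPKM in the naive libraries and to 311 and 3472.5 FPKM in the young and old tumor-bearing ones.

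Activation genes of glia went both ways. Gfap, the intermediate filament of reactive astrocytes (ENSMUSG00000020932, mm10 chromosome 11, 102887336 to 102900912), was at 61.1, 149, 42.2 and 167 FPKM in young naive, young tumor, old naive and old tumor tissue, so it was lowest in old naive tissue (1.45-fold lower than in young naive, 1.38 to 1.52). Vim, a filament of the same cells, was 1.95-fold lower (1.79 to 2.12), and Serpina3n, a secreted protease inhibitor, differed by less than its counting error (1.17-fold lower, 0.993 to 1.37). The reactive astrocyte list had 2 of 21 measured members lower and 0 higher, with a median of 0.03, which was below 0 under each of the 4 other scalings and -0.53 with a floor of 5 FPKM. After GC centring 3 were lower. The disease-associated microglia list had 3 of 19 higher and 1 lower (median 0.15, below 0 with equal FPKM totals). Of the 19, 2 passed the floor only through old and 1 only through young naive tissue, so the count rests in part on the floor. Without a floor the median was 0.22. Trem2, the lipid receptor of that state, was 2.49-fold higher (2.07 to 3.01) and Cd52 was at 0.618 and 1.56 FPKM, while Spp1, osteopontin, which neurons of the brainstem also make, was 4.18-fold lower (3.40 to 5.17).

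The lists of genes reported to differ in the aged mouse brain were written from general knowledge with results of these data known, so their counts are descriptions. Of 18 measured genes reported higher, 2 were at least 2-fold higher, C4b and Cd52, and 1 lower, Spp1 (median 0.45). Of the 18, 2 passed the floor only through old naive tissue, Cd52 among them, so the count rests in part on the floor. Without a floor the median was 0.42. Of 13 measured genes reported lower, 1 was at least 2-fold lower and 0 higher (median -0.28). That gene was Sparc, a matrix protein of astrocytes and vessels, at 166, 140, 52.6 and 124 FPKM in young naive, young tumor, old naive and old tumor tissue (3.16-fold lower between the naive libraries, 3.04 to 3.28). Enpp6, a gene of newly forming oligodendrocytes, was at 2.30 and 1.15 FPKM (2.01-fold lower, 1.62 to 2.51), just inside 2-fold on the log2 scale of FPKM + 0.1. Dcx, a microtubule protein of immature neurons, was at 2.21 and 2.78 FPKM (1.26-fold higher, 1.116 to 1.42).

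Senescence and division genes were low. Cdkn2a, which encodes the cell cycle inhibitors p16 and p19, stayed under the floor, with 4 reads in young naive and 9 in old naive tissue. In tumor-bearing tissue it had 51 and 1459 reads. Cdkn1a, which encodes p21, was at 8.34 and 6.19 FPKM (1.35-fold lower, 1.18 to 1.54). None of the 9 measured senescence genes (of 24 listed; median 0.24) and none of the 18 measured p53 targets (median -0.12) was 2-fold apart. Of 31 cell cycle genes 11 were measured, with 1 higher and 1 lower. The higher was E2f1, a transcription factor of S phase entry, at 2.20 and 8.81 FPKM (4.003-fold, 3.30 to 4.87), while the proliferation marker gene Mki67 had 37 and 21 reads.

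Immediate early genes, which neurons switch on within minutes of activity, leaned higher in old naive tissue. Of 24 measured, 7 were at least 2-fold higher, 0 lower, and 19 lay above 0 (median 0.70). Arc, a synaptic capsid-like protein, was at 32.5, 30.4, 82.7 and 10.7 FPKM in young naive, young tumor, old naive and old tumor tissue (2.55-fold higher between the naive libraries, 2.41 to 2.69). Old naive tissue was the highest of the 4. Egr1 and Junb, activity-induced transcription factors, were 2.30-fold (2.22 to 2.39) and 2.52-fold higher (2.31 to 2.74), and Fos, the most used of these markers, was 1.78-fold higher (1.57 to 2.01). Bdnf, a growth factor induced more slowly, was at 5.13 and 3.69 FPKM. The median of this list was 0.17 above that of the cortex list, and 0.04 above it after GC centring, under which Arc and Egr2 were the 2 past 2-fold. These list comparisons were added after the values were seen. Forebrain neurons are a main source of these transcripts.

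Egr2, which had the highest ratio of the list (78 and 177 reads, 2.97-fold, 2.26 to 3.92), is also the member whose promoter held the serum response element core called the CArG box. The 250 bases before its RefSeq start, at chr10:67537316-67537565 of GRCm38.p6 on the plus strand, are shown for that element, with the CArG box and the motif TGCCAA in capitals.
Egr2: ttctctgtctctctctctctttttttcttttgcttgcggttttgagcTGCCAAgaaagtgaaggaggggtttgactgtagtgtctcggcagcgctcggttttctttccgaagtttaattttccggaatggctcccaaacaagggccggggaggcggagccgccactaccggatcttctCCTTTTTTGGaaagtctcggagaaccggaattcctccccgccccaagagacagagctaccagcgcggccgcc
Of the 18 immediate early genes with a promoter in the table, 1 held a CArG box within these 250 bases, against 1.62% of all genes of the table. The RefSeq start lies inside the longer GENCODE gene, and a match describes letters and no binding.

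Clock and synapse genes leaned the same way. Of 17 clock genes 13 lay above 0 (median 0.57), with 1 at least 2-fold higher, Per1, at 16.6 and 35.2 FPKM (2.12-fold, 2.005 to 2.25). Dbp, an output gene with a strong daily rhythm, was at 16.6, 27.2, 32.7 and 7.37 FPKM in young naive, young tumor, old naive and old tumor tissue, and Clock, an activator of the core loop, was at 11.6 and 6.69 FPKM. The hour of tissue collection is not given in the sources used here. Synaptic vesicle release genes had 23 of 24 members above 0 and 2 at least 2-fold higher (median 0.36). These were Bsn, a scaffold of the active zone (2.71-fold, 2.65 to 2.78), and Stx1a, a fusion protein (2.16-fold, 2.06 to 2.25). After GC centring Per1 (0.75) and Stx1a (0.82) were no longer past 2-fold, which left 0 clock genes and 1 release gene higher. Glutamate and GABA receptor genes had a median of -0.02 (0.13 after GC centring), with Gabra6 and Grm4, a receptor of granule neuron terminals (3.55-fold lower, 3.32 to 3.80), among the 3 lower ones.

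**Figure D3:**
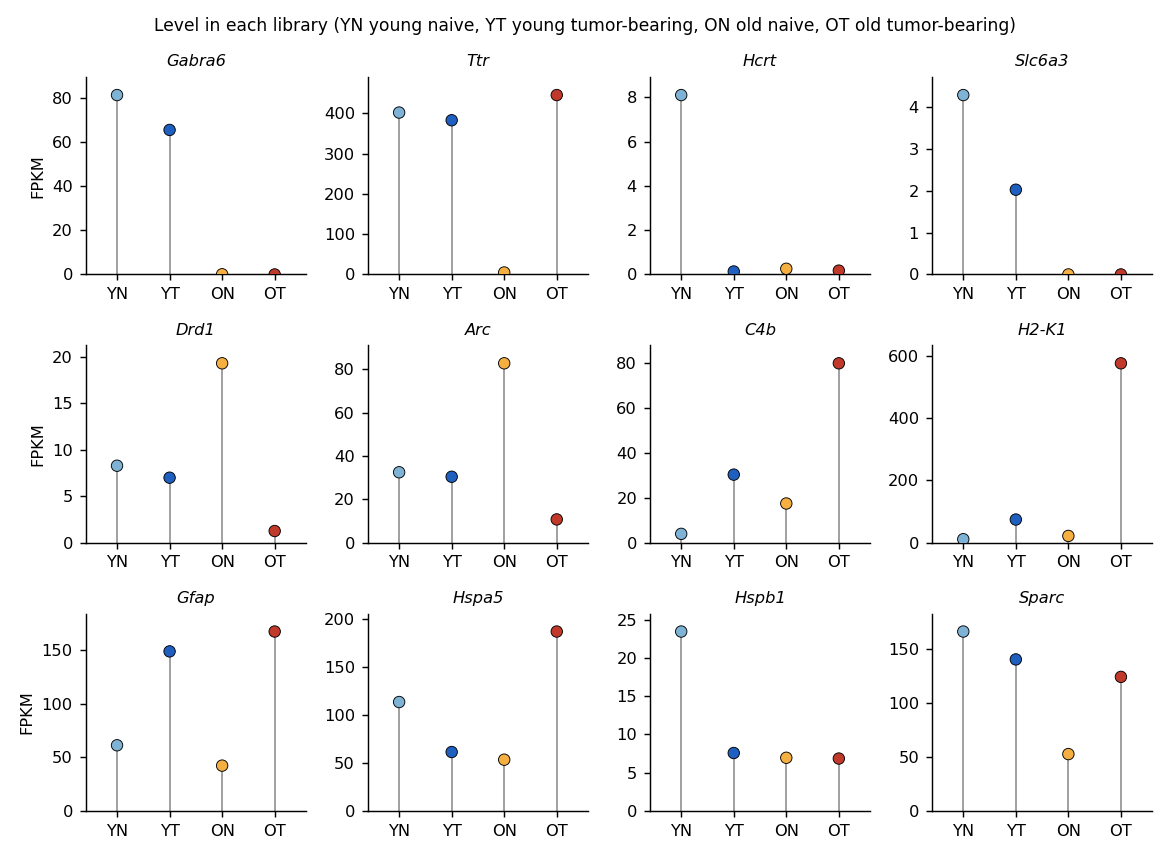
Each panel gives a gene's FPKM in the 4 libraries (YN young naive, YT young tumor-bearing, ON old naive, OT old tumor-bearing) on its own axis from 0. There is 1 library per point, with no error bars, and all are labelled extratumoral tissue. Gabra6 and Slc6a3 are present in the young libraries, Ttr is low in old naive alone, Arc and Drd1 are highest in old naive, and Hcrt and Hspb1 are highest in young naive.

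Protein folding genes were mostly lower in old than in young naive tissue. The endoplasmic reticulum stress list had 18 of 22 measured members below 0, 2 at least 2-fold lower and 0 higher (median -0.46). Hspa5, the chaperone BiP, was at 114, 61.5, 53.5 and 187 FPKM in young naive, young tumor, old naive and old tumor tissue (2.13-fold lower between the naive libraries, 2.05 to 2.21). Calr, calreticulin, was at 173, 103, 107 and 209 FPKM in the same order, so in both genes young naive tissue also stood above young tumor tissue. The other gene past 2-fold was the cochaperone Sdf2l1 (2.15-fold lower, 1.73 to 2.67), and Ddit3, the stress-induced factor CHOP, was at 12.7 and 13.6 FPKM. The cytosolic heat shock list had 17 of 22 members below 0, and 1 past 2-fold (median -0.29). That was Hspb1, a small heat shock protein, at 23.4, 7.57, 6.94 and 6.84 FPKM, 3.38-fold lower (2.74 to 4.18) and high in the young naive library alone. Hspa8, the constitutive chaperone, was at 605 and 393 FPKM. In young naive, young tumor, old naive and old tumor tissue the endoplasmic reticulum list summed to 964, 679, 641 and 1483 FPKM. The heat shock list summed to 2178, 1581, 1666 and 1768 FPKM in the same order. In both lists young naive tissue thus stood above young tumor tissue as well as above old naive tissue.

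Collagen genes leaned higher, with a median of 0.79. Of 25 measured (of 44 listed), 11 were higher by 2-fold or more and 1 lower, and 7 were higher after GC centring. Of the 25, 6 passed the floor only through old and 1 only through young naive tissue. The count and the median therefore rest in part on the floor. Without a floor the median was 0.40, and with a floor of 5 FPKM it was 1.2966. Col6a1, a beaded filament collagen, was at 7.72, 13.1, 36.2 and 7.98 FPKM in young naive, young tumor, old naive and old tumor tissue (4.70-fold higher between the naive libraries, 4.31 to 5.12), and Col6a2, its partner chain, was 3.61-fold higher (3.13 to 4.18). Col4a1 and Col4a2, chains of the vessel basement membrane, were 2.15-fold (1.97 to 2.35) and 2.48-fold higher (2.29 to 2.68). The fibrillar chains Col1a1 and Col1a2 were at 2.22 and 1.82 FPKM and at 2.03 and 1.69 FPKM. The fibroblast list of the meninges, a tissue rich in collagen, came to 52.5 and 60.9 FPKM, with 1 of 14 measured members higher and 1 lower (median 0.17, below 0 with equal FPKM totals).

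Housekeeping groups were near the median of all genes. Cytosolic ribosomal protein genes had 0 of 75 members 2-fold apart (median 0.12, below 0 under 3 of the 4 other scalings), proteasome genes 0 of 33 (median -0.07), and lysosome genes 0 of 24 (median 0.05, below 0 under each of the 4 other scalings). Nuclear respiratory chain genes had 1 of 74 past 2-fold (median -0.01), Ndufa12, a complex I subunit, at 39.7, 16.3, 17.8 and 13.6 FPKM. Glycolysis genes had 1 of 20 measured members past 2-fold (median 0.18, below 0 with equal FPKM totals), Gapdh, at 13.1 and 53.8 FPKM, a value that is uncertain because the gene has many near-identical pseudogenes. Cholesterol synthesis genes had 20 of 24 members above 0 (median 0.32). Beta protocadherin genes, a cluster of neuronal adhesion genes, had 4 of 19 measured members higher by 2-fold or more and 0 lower (median 0.40). Of the 19, 4 passed the floor only through old naive tissue, Pcdhb4 among them, so this count rests in part on the floor. Without a floor the median was 0.24.

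The 15 named genes with the highest ratios were mostly of low level, and 12 of them lay below 1 FPKM in young naive tissue. Capn11, a calpain protease gene best known from testis, had 6 reads in young naive and 111 in old naive tissue (24.2-fold, 10.8 to 67.3), with 3 and 2 in the tumor-bearing libraries. Igfn1, a muscle-type immunoglobulin and fibronectin domain gene, was at 1.55, 3.43, 10.05 and 0.478 FPKM in young naive, young tumor, old naive and old tumor tissue (6.46-fold between the naive libraries, 5.69 to 7.36). Adam33, a metalloprotease gene, had 59 and 319 reads (7.07-fold, 5.34 to 9.49). Of the 15, 11 were in no list, and the others were H2-Q6, H2-Q7, Col6a1 and C4b.

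Ratios varied with the GC content of the transcripts. In 5 equal bins of genes by GC content, from the lowest to the highest, the median log2 ratio was -0.24, -0.09, 0.05, 0.20 and 0.33. Genes at least 2-fold higher numbered 24, 31, 58, 102 and 197 in these bins, while lower ones numbered 87, 79, 76, 66 and 83. The median GC content was 56.1% for higher, 49.97% for lower and 50.5% for all genes. Young tumor-bearing over young naive tissue gave medians of -0.16 in the lowest and 0.10 in the highest bin. Summed exon length showed no such slope, with medians between -0.01 and 0.06. After the median ratio of genes of like GC content was subtracted, cerebellum had a median of -5.20, striatum was at 0.77 with 3 genes higher, MHC class I at 0.59 with 4 higher, and immediate early genes at 0.52 with 2 higher. C4b had a GC-centred log2 ratio of 1.94. Of the genes described above as 2-fold apart, Adora2a, Ppp1r1b, Slc17a7, Ugt8a, Samd9l, Trem2, Egr1, Junb, Per1, Stx1a, Hspa5, Col4a1 and Col4a2 were within 2-fold after GC centring, with sizes between 0.74 and 0.96. The part of GC content in these differences was not tested further.

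**Figure D4:**
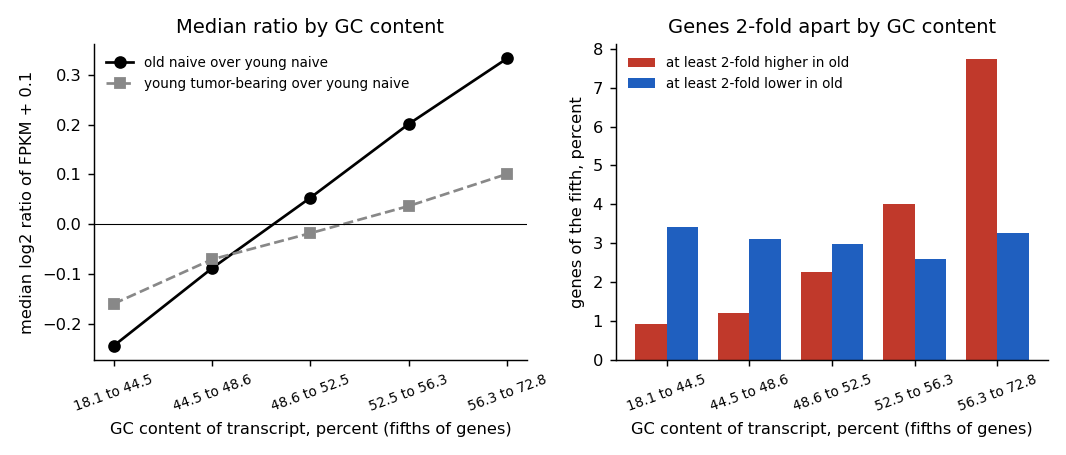
Left, median log2 ratio of FPKM + 0.1 in 5 equal bins of genes by GC content of the transcript, for old over young naive tissue (circles) and young tumor-bearing over young naive tissue (squares); right, percent of each bin at least 2-fold higher (red) or lower (blue) in old naive tissue. The median climbs from -0.24 to 0.33, and the share of higher genes from 0.942% to 7.73%, while the share of lower genes stays between 2.59% and 3.41%.

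**Figure D5:**
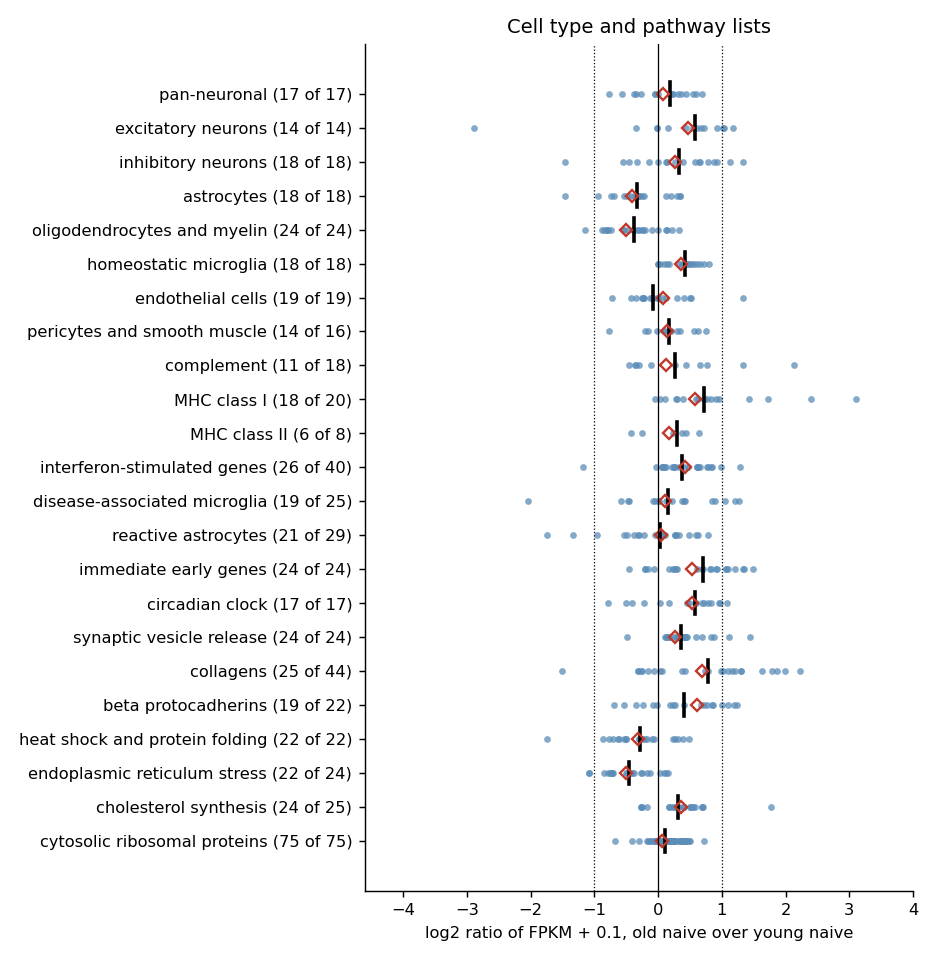
Each point is a measured gene of 1 of the cell type and pathway lists drawn, placed by its log2 ratio of FPKM + 0.1, old over young naive tissue; black bars are list medians, red diamonds are medians after GC centring, dotted lines mark 2-fold, and the labels give measured genes of those listed. Of the lists drawn, which are a selection, endoplasmic reticulum stress has the lowest median (-0.46) and collagens the highest (0.79), and Slc17a6 of the excitatory neurons lies lowest at -2.89.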

How the data were processed

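The 4 libraries (poly-A RNA, paired-end Illumina reads of C57BL/6 brain tissue) were grouped by their labels, 1 in each group. The authors deposited 1 FPKM column per library, per the file headers, for Ensembl genes without symbols. The counter, its annotation and whether mice were pooled are not given in the sources used here; HISAT2 and mm10 are named in the submitters' processing notes. The labels' protocols describe preparations with and without strand, so reads of overlapping genes could not be told apart (4576 of the 12745 genes analysed). GENCODE M21, on the same assembly, gave symbols, types and coordinates for 54495 of 54532 genes. FPKM times summed exon length came in whole steps, which gave a depth divisor of 20445811 fragments in young naive and 15646445 in old naive tissue, what it counts not being stated. Reads were whole in all 4 libraries for 12093 of the 12745 genes (94.9%), within 0.03 reads or 2e-05 of the value. With 1 library per group no count test was run.

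Log2 ratios used FPKM + 0.1, which understates differences of low genes. Intervals are exact conditional binomial 95% intervals, which treat reads as independent molecules and so cover counting error only. A fold against 0 reads is a bound from 3 reads and takes the other library's reads without error. Genes below 1 FPKM in both libraries were left out. Named genes, with established symbols and at least 50 reads, were the 15 highest and 15 lowest, up to 4 per list by absolute log2 ratio, and 17 fixed genes. Chosen after their values were seen, outside that rule, were Aqp1, Bdnf, Calb1, Calr, Cd52, Clock, Col1a1, Col1a2, Col4a1, Col4a2, Ddit3, Drd2, Fos, Gnrh1, H2-D1, Hspa8, Ifi27l2a, Itpr1, Ngp, Ppp1r1b, Rarb, S100a8, S100a9, Th, the genes at the floor's edge and the genes given below the floor. The 62 gene lists and the genes compared were chosen with earlier results of these data known. GC centring subtracted the median ratio of 50 bins of transcript GC content. Alternatives changed the pseudocount, floor, scaling, gene set, treatment of 0 reads and fold. Scripts were tested on simulated reads (Python 3.11.15, numpy 2.4.6, scipy 1.17.1). RefSeq promoters were searched over the 250 bases before the start. Some genes of these lists are not reported here by name.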

Additional observations from a re-analysis of the deposited data

How the results depend on the processing

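No paired analysis was possible because each group was 1 library, and for the same reason no replicate could be left out. The counts of genes at least 2-fold higher and lower (415 and 391) became 184 and 221 with a pseudocount of 1, 191 and 159 with a floor of 5 FPKM, 812 and 836 with no floor, 1035 and 760 over all gene types, 1503 and 967 at a fold of 1.5, and 32 and 131 at a fold of 4. The higher count was 274 when scaled by fragments in genes, 206 with equal FPKM totals and 270 after GC centring, which was added after the data were seen. The median over all genes (0.04) was -0.0997 when scaled by fragments, -0.185 with equal FPKM totals and -0.0839 with totals taken without the mitochondrial and 50 most abundant genes. Of 58 list medians, 12 changed sign with equal FPKM totals, none of them above 0.22 in size, and 5 after GC centring, none above 0.13. Such changes numbered 4 with the floor of 5 FPKM, 4 with no floor, 5 without genes whose exons overlap another gene (MHC class II among them) and 3 with at least 50 reads (senescence among them). Depth limits genes of few reads: 22 of the genes had 0 reads in old naive and 5 in young naive tissue.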

Other observations

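Several RNAs that are not protein-coding, and so lie outside the comparison above, also differed between the naive libraries. They were chosen after their values were seen. Neat1, the scaffold RNA of nuclear paraspeckles, was at 3.20, 8.81, 9.88 and 22.4 FPKM in young naive, young tumor, old naive and old tumor tissue (3.09-fold higher in old than in young naive tissue, 2.90 to 3.29, exact 95% interval of the reads, counting error only). Miat, a neuronal long noncoding RNA, was 2.37-fold higher (2.28 to 2.46) and Meg3, an imprinted one, 1.71-fold higher (1.69 to 1.73), while Malat1 was at 150 and 176 FPKM (1.17-fold, 1.15 to 1.19). Lhx1os, transcribed beside Lhx1, had 147 reads in young naive, 159 in young tumor, 0 in old naive and 1 in old tumor tissue, at least 37.5-fold lower in old naive tissue.

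Constant-region genes of immunoglobulins went different ways. Ighm, the IgM heavy chain, was at 9.91, 16.7, 23.4 and 24.5 FPKM in the same order (2.36-fold higher in old naive tissue, 2.08 to 2.68), and Ighg2c, an IgG heavy chain, had 45 and 137 reads in young and old naive tissue (3.98-fold, 2.82 to 5.70). The light chain gene Igkc differed by less than its counting error, with 17 and 12 reads (0.922-fold, 0.402 to 2.05). Trbc2, a T cell receptor constant gene, was 2.49-fold higher (1.98 to 3.15), at 115 and 219 reads, whereas Cd3e had 6 and 0 reads.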
